A study of Mus spretus with 8 samples.

Results

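The Ugt2 glucuronosyltransferases are a family of liver enzymes, and 8 of their genes were followed here: Ugt2a3, Ugt2b1, Ugt2b5, Ugt2b34, Ugt2b35, Ugt2b36, Ugt2b37 and Ugt2b38. They were chosen by name, as all probes that the array's annotation assigns to those symbols, which gave 9 of the 42957 probes and 8 of the 22471 named genes. Ugt2b35 had 2 probes and each of the others had 1. The livers came from 8 male mice of the species Mus spretus (inbred strain SPRET/EiJ, founded from wild animals), which entered the study at 7 weeks of age. For 30 days the 4 DDE mice ate Harlan diet with corn oil that carried p,p'-DDE at 450 mg/kg, and the 4 control mice ate that diet with corn oil only. p,p'-DDE is the long-lived breakdown product of the insecticide DDT. Each liver was measured on its own 1-colour array, so that a value below is the log2 signal of 1 mouse. The question put by the design is which of these genes differed in RNA level after DDE.

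UDP-glucuronosyltransferases sit in the membrane of the endoplasmic reticulum and attach glucuronic acid, taken from UDP-glucuronic acid, to hydroxyl and other groups of small fatty molecules. The glucuronides are water soluble and leave the hepatocyte through transport proteins for bile or blood. The Ugt2b enzymes are known for taking up androgens and other steroids, bile acids and many drugs, and their genes lie side by side in a cluster with Ugt2a genes, with much of their sequence in common. Ugt2b34, Ugt2b35 and Ugt2b36 appear on common lists of targets of CAR and PXR, the nuclear receptors that sense foreign compounds.

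By probe name, 7 of the 8 genes read higher in the DDE livers, and Ugt2b34, read near background, did not pass the test. These genes share much of their sequence, so a probe may also bind transcripts of other members, which was not tested. At an adjusted p under 0.05 (limma, 4 against 4 mice, adjusted over all probes) 7 of the 9 probes were higher and 0 were lower, where 2.34% of all probes were higher and 0.661% were lower. Of the 16080 probes that were above background on every array of at least 1 group, 6.10% were higher and 1.70% lower. The same 7 probes had groups that did not overlap, with every DDE liver above every control, while 11.8% of all probes had groups apart in either direction. Changes of the 7 ran from 1.12 to 3.79 on the log2 scale. The median change over all 9 probes was 1.94, against 0.015 over all 42957 probes and 0.13 over those 16080 probes. In bulk liver, a change in the number of cells of a type and a change in RNA per cell cannot be told apart.

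**Figure D1:**
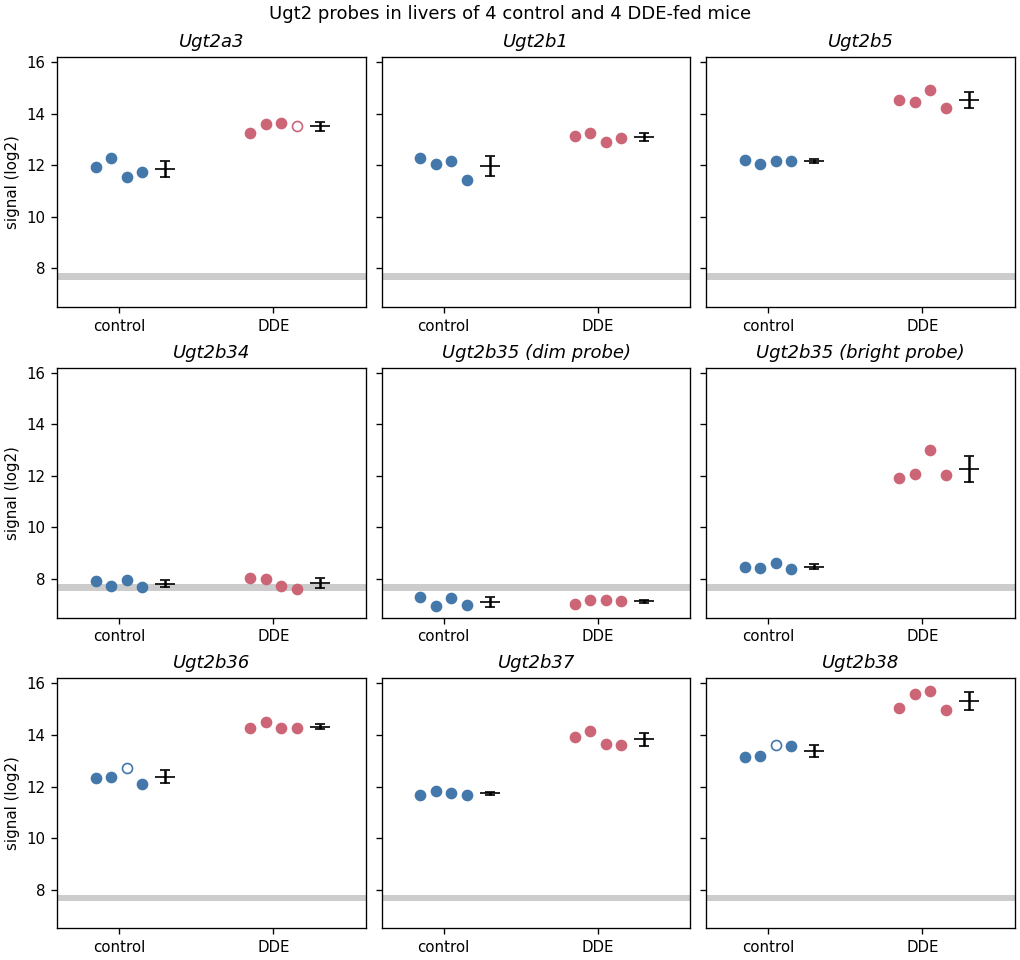
Log2 signal of the 9 Ugt2 probes in 4 control and 4 DDE livers; each point is 1 mouse, the bar is the mean with its SD, an open point is a value on a stained spot and the grey band is the range of the background level over the 8 arrays. In 7 panels all DDE points lie above all control points, while Ugt2b34 and the dim probe of Ugt2b35 sit at or below the grey band or just over it in both groups.

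Some facts of the arrays bear on these values. The background level, set from probes for odour and pheromone receptors, lay between 7.55 and 7.81 on the 8 arrays, and the scale ended at 16. Patches of neighbouring spots that deviated together, called stained here, covered between 0.521% and 9.50% of an array, with the largest shares on control 4 (9.50%) and DDE 4 (7.59%). Of the 7 probes that were higher, 4 had no stained spot and 3 had 1 each. The 8 hepatocyte markers were above background on all arrays, which shows the tissue but not a constant level, since 6 of them read above 15.5 in all 4 controls. Of the 8, only Apoa1 passed the test, as lower, by at least 0.60 on the log2 scale since its controls were at that end of the scale. Pancreas markers were present in every liver (3 of 3 above background on all arrays), with Prss1, a digestive enzyme gene, from 10.42 in DDE 2 to 15.96 in control 1. The summed level of the pancreas markers spanned 12.37 to 17.14 in controls and 13.45 to 16.21 after DDE, so that the groups overlapped. Of the intestine markers, 4 of 4 were measured, with summed levels from 13.85 to 15.34 in controls and 12.51 to 13.69 after DDE, carried by Fabp2. The highest Fabp2 value, 15.32 in control 2, was on a stained spot. Vil1 and Lct were above background in 1 control each and Cdh17 in 2, and these genes were at background in all 4 DDE livers. Of 6 stellate cell and fibroblast markers 0 passed the limma test and 3 were higher at an unadjusted p under 0.05, where 11.4% of the 22471 genes were higher and 4.57% lower, with summed levels from 10.87 to 11.58 in controls and 11.66 to 13.96 after DDE, where Des of DDE 4 was on a stained spot. Kupffer cell, endothelial, cholangiocyte, leukocyte, red cell and kidney lists also had 0 members past the threshold. The part of pancreas, intestine or stellate cell RNA in the Ugt2 changes was not tested.

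Ugt2b35 had the steepest measured rise, at the brighter of its 2 probes (array feature 26600). Its signal was 8.46, 8.44, 8.61 and 8.39 in the controls and 11.93, 12.07, 13.01 and 12.04 in the DDE livers. The controls lay close together, a little above background, and DDE 3 stood above the other DDE livers. The mean went from 8.48 ± 0.095 to 12.26 ± 0.50 (SD, n = 4 per group), a rise of 3.79 ± 0.24 (SE) on the log2 scale, or 13.8-fold with a 95% confidence interval from 9.38 to 20.3 (limma adjusted p = 0.00158). Among all 42957 probes, this rise ranked 12. With controls this close to background, the rise of the transcript itself may be understated.

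The other probe of Ugt2b35 (feature 8577) gave no such signal, although the annotation assigns both probes to the same transcript, NM_172881. It read 7.32, 6.94, 7.26 and 6.98 in controls and 7.04, 7.18, 7.17 and 7.16 after DDE. All 8 values were at or below the background level of their arrays, so this probe did not measure a level in either group. Its change was 0.01 ± 0.10 (SE, limma adjusted p = 0.96). The statement on Ugt2b35 therefore rests on 1 probe. With the mean of both probes in its place, the gene rose by 1.90 (limma adjusted p = 0.00299, from a separate fit of gene means adjusted over all named genes). That mean takes in the probe that measured no level, so it is not a measured size of the gene's rise.

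Ugt2b5, another Ugt2b enzyme of mouse liver, followed at 12.21, 12.04, 12.17 and 12.18 in controls and 14.54, 14.46, 14.92 and 14.21 after DDE. The lowest DDE liver exceeded the highest control by 2.00. The rise was 2.38 ± 0.15 (SE) or 5.21-fold, with a 95% confidence interval from 4.11 to 6.62 (limma adjusted p = 0.00152).

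Ugt2b37 had the smallest p of the family. Its controls read 11.67, 11.81, 11.77 and 11.68, and its DDE livers 13.92, 14.14, 13.64 and 13.62. The controls spanned 0.14 in all and DDE 2 was the highest. The gene rose by 2.10 ± 0.13 (SE), 4.28-fold with a 95% confidence interval from 3.48 to 5.26 (limma adjusted p = 0.00144).

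Ugt2b36 read 12.34, 12.36, 12.74 and 12.10 in controls and 14.26, 14.50, 14.29 and 14.27 after DDE. In the DDE group 3 livers were nearly equal and DDE 2 stood above them. The rise was 1.95 ± 0.14 (SE), 3.85-fold with a 95% confidence interval from 3.07 to 4.83 (limma adjusted p = 0.00273). The highest control, control 3, was on a stained spot whose neighbours were brighter by a median of 2.99, and with stained spots left out the rise was 2.06.

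Ugt2b38, known as more abundant in male than in female mouse liver, was the closest to the top of the scale. Control values were 13.16, 13.20, 13.62 and 13.57, and DDE values were 15.06, 15.58, 15.69 and 14.97. The median SD between control mice was 0.0944 for probes with control means above 15.5 against 0.265 for the 169 probes between 15 and 15.5, and 2 of the 4 DDE values lay there, so its fold is a lower bound. It rose by 1.94 ± 0.20 (SE) or at least 3.83-fold (limma adjusted p = 0.00896). The value of control 3 was on a stained spot here too, with neighbours brighter by a median of 2.06, and the rise was 2.02 without stained spots.

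Ugt2a3, an enzyme with bile acid substrates that is made in liver and gut, read 11.94, 12.27, 11.53 and 11.73 in controls and 13.25, 13.60, 13.63 and 13.54 after DDE. The groups were 0.98 apart at their nearest values. The rise was 1.64 ± 0.17 (SE), 3.11-fold with a 95% confidence interval from 2.35 to 4.11 (limma adjusted p = 0.00884). The value of DDE 4 was on a stained spot with neighbours brighter by a median of 1.38, and it lay below those of DDE 2 and DDE 3. Leaving stained spots out gave a rise of 1.63.

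Ugt2b1 had the smallest rise among the 7. The controls read 12.27, 12.06, 12.16 and 11.42 and the DDE livers 13.15, 13.26, 12.91 and 13.05. Control 4 was the lowest, and the controls were more spread (SD 0.38) than the DDE livers (SD 0.15). The gene rose by 1.12 ± 0.19 (SE), 2.17-fold with a 95% confidence interval from 1.58 to 2.96 (limma adjusted p = 0.0326). This call did not hold when control 2, control 3 or any of the 4 DDE livers was left out (limma adjusted p from 0.0522 to 0.103), or with a variance that followed the intensity (0.0564). Without control 4 the rise was 0.93 and passed (limma adjusted p = 0.0166).

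Ugt2b34 was the only member with no probe past the threshold. Its values, 7.93, 7.71, 7.96 and 7.70 in controls and 8.05, 7.99, 7.74 and 7.62 after DDE, lay near the background level, above it in 4 of 4 controls and 3 of 4 DDE livers. The groups overlapped. The change was 0.025 ± 0.12 (SE), with a 95% confidence interval from -0.26 to 0.31 (limma adjusted p = 0.93). At a signal this close to background a change of the transcript itself may be understated.

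**Figure D2:**
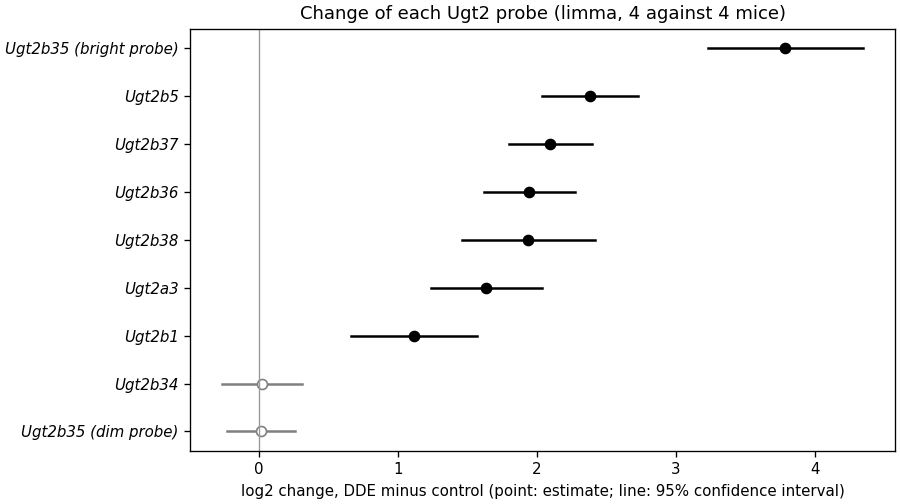
Log2 change, DDE minus control, of each Ugt2 probe, ordered by size; the point is the limma estimate from 4 against 4 mice, the line its 95% confidence interval, and filled points passed an adjusted p of 0.05. The changes run from 0.01 at the dim probe of Ugt2b35 to 3.79 at its bright probe, and 5 genes lie between 1.64 and 2.38, where the value of Ugt2b38 is a lower bound.

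The members did not all rise alike. The change of each gene, at its brightest probe, was set against that of every other over 28 pairs, but Ugt2b34 dipped to background and Ugt2b38 reached the top of the scale, so their differences from other genes are not measured sizes and are not given. Of the 15 pairs among the other 6 genes, 9 differed at the smallest p this design allows (two-sided exact permutation p = 0.0286 over 70 splits of the 8 mice). Those 9 had an exact permutation adjusted p of 0.0471 over the 28 pairs and of 0.0476 over the 15. Tied at the same p, they pass or fail together, and fewer pairs at that p would raise the adjusted value. At its bright probe, Ugt2b35 rose more than each of the other 5 genes. The nearest to it was Ugt2b5, with a difference of 1.41 on the log2 scale and an exact permutation interval from 0.95 to 1.88. The controls of Ugt2b35 lay close to background, so its differences may be understated. Its first place rests on the bright probe alone. The dim probe, at background in all livers, changed by 0.01, and with the mean of both probes Ugt2b35 would not rank first. Of the remaining pairs, 4 passed. Ugt2b1 rose less than Ugt2b5, by 1.27 (interval 0.40 to 2.07), than Ugt2b37, by 0.98 (0.31 to 1.48), and than Ugt2b36, by 0.83 (0.43 to 1.31). Ugt2a3 rose less than Ugt2b5, by 0.75 (0.030 to 1.52). This last pair reached the smallest p by a gap of 0.03 between the groups, set by DDE 4, whose Ugt2a3 value was on a stained spot.

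Ugt2b5, Ugt2b36 and Ugt2b37 could not be told apart in their change. Ugt2b5 exceeded Ugt2b36 by 0.44 (interval -0.14 to 1.20) and Ugt2b37 by 0.29 (-0.22 to 1.05). Ugt2b37 exceeded Ugt2b36 by 0.15 (-0.23 to 0.63). These intervals still allow differences of the size seen between other members.

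**Figure D3:**
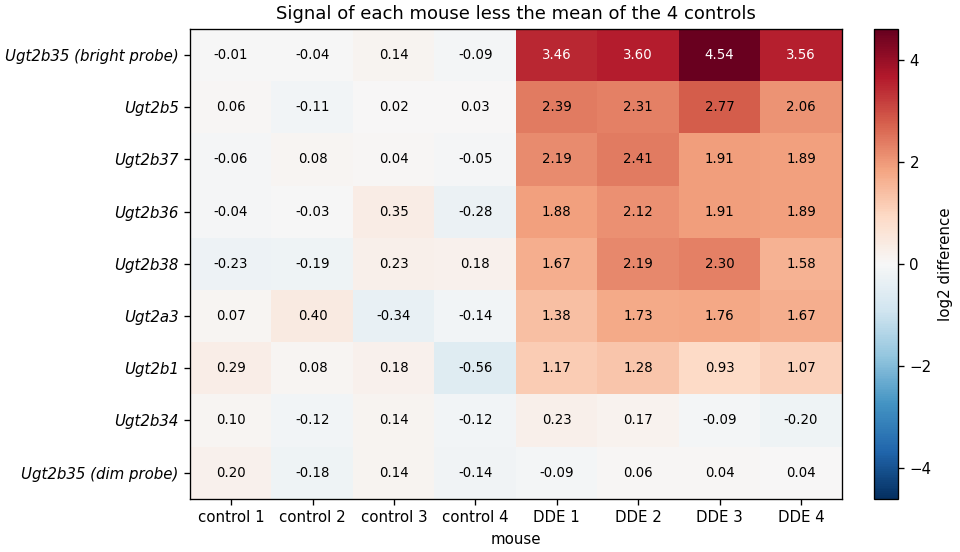
Log2 signal of each mouse (columns) less the mean of the 4 controls, for the 9 Ugt2 probes (rows, ordered by mean change); red is higher and blue lower than the control mean. Every DDE cell of the upper 7 rows is positive, from 0.93 to 4.54, and the lower 2 rows stay near zero in all mice.

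Among the DDE mice the family did not follow a single order. DDE 3 was the highest at 4 of the 7 probes (Ugt2b35, Ugt2b5, Ugt2b38 and Ugt2a3) and the lowest at Ugt2b1. DDE 2 was the highest at the other 3 (Ugt2b36, Ugt2b37 and Ugt2b1). The lowest DDE value belonged to DDE 1 or DDE 4 at 3 probes each. Taken per mouse, the median of the 7 changes from the control mean was 1.88 in DDE 1, 2.19 in DDE 2, 1.91 in DDE 3 and 1.89 in DDE 4, so the animals differed little as a whole. In the controls the same median lay between -0.085 and 0.14. Prss1 read 14.54, 10.42, 12.43 and 13.86 in DDE 1 to DDE 4. In controls 1 to 4 it read 15.96, 10.98, 14.31 and 13.70, beside Ugt2 medians of -0.015, -0.025, 0.135 and -0.085. The part of pancreas RNA in the Ugt2 changes was not tested.

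**Figure D4:**
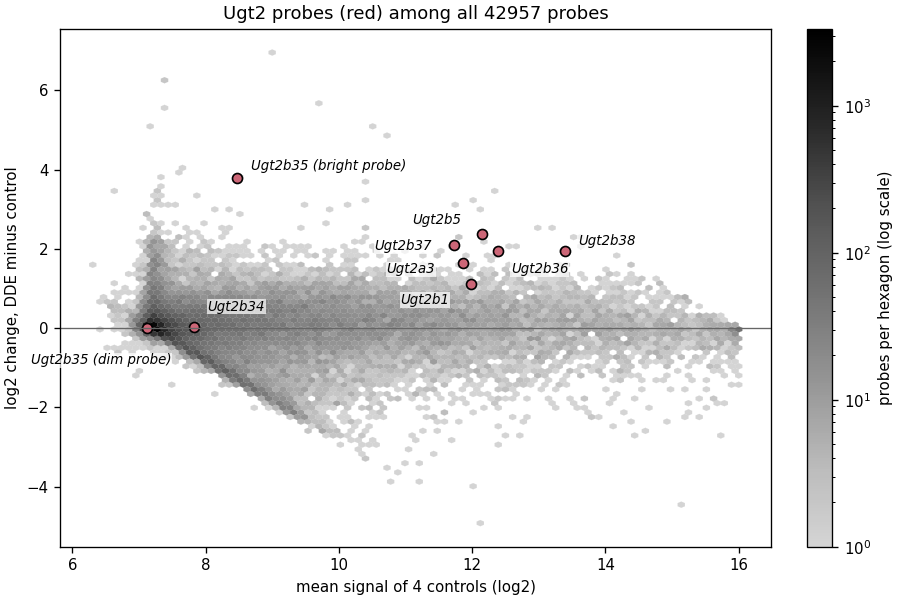
Log2 change, DDE minus control (vertical), against the mean log2 signal of the 4 controls (horizontal); grey hexagons count all 42957 probes on a log scale and red points are the 9 Ugt2 probes. The bright probe of Ugt2b35 stands at 3.79 above a control signal of 8.48, the other 6 raised probes have control means between 11.73 and 13.39, and Ugt2b34 and the dim Ugt2b35 probe lie near zero at the dim end.

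Genes outside the family with changes close to those of Ugt2b37, the member with the smallest p, were sought, which favours a rise of like size. Over the 8 mice, each value less the control mean of its probe, the 5 nearest among 1080 named probes past the threshold were Gstm3, Reep6, Pfn1, Ccl9 and Cyp2c39, with root mean square differences from 0.24 to 0.30. Those of Gstm3 and Cyp2c39 rest on DDE values above 15.5, near the top of the scale. Within the family Ugt2b36 was nearer still, at 0.21, and Ugt2b38 and Ugt2b5 stood at 0.31 and 0.33. Whether these family probes bind some of the same transcripts was not tested. Gstm3 is a glutathione S-transferase, with DDE values from 15.82 to 15.99. Reep6, a shaping protein of the endoplasmic reticulum, went from 10.11 ± 0.21 to 11.95 ± 0.24. Cyp2c39 is a cytochrome P450 with DDE values from 15.63 to 15.90, that of DDE 3 on a stained spot. Pfn1 encodes the actin-binding protein profilin, and Ccl9 a chemokine. The measure describes likeness in these mice only. It keeps the rise itself, so that these 5 had groups apart largely follows from how they were picked. Nor does it ask for a like order of the mice. Reep6 and Pfn1 read highest in DDE 2 and lowest in DDE 4, as Ugt2b37 did. Ccl9 and Cyp2c39 had the reverse, and Gstm3 neither.

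The genes around the enzymes were taken from 5 lists, of which 43 of 57 genes had a probe under the listed symbol and the other 14 were not analysed here. At the brightest probe of each gene, 4 of the 43 rose, 1 fell and 38 did not pass, against 2.58% higher and 0.774% lower over all 22471 genes. Of the 16080 probes above background on every array of at least 1 group, 6.10% were higher and 1.70% lower. The median change of the 43 genes was 0.03, against 0.015 over all genes.

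Supply and use of UDP-glucuronic acid, the sugar donor of every glucuronosyltransferase, had 0 of 9 genes past the threshold and a median change of 0.23. Without adjustment 4 had a limma p under 0.05, each of them as higher: Ugdh, Ugp2, Entpd5 and Uxs1. At that p 11.4% of all genes were higher and 4.57% lower. Ugdh makes UDP-glucuronic acid from UDP-glucose. It read 11.43, 11.98, 12.23 and 11.62 in controls and 12.83, 13.19, 13.73 and 12.33 after DDE, a change of 1.21 (limma adjusted p = 0.108). All DDE livers were above all controls. Ugp2, which makes the UDP-glucose, had a change of 1.13 (limma adjusted p = 0.128). The smallest p of the list was that of Entpd5, which splits UDP in the endoplasmic reticulum, with values from 10.91 to 11.32 in controls and from 11.72 to 12.93 after DDE and a change of 1.17 (limma adjusted p = 0.0573). Entpd5 passed in 5 of 16 alternatives, among them those that left out DDE 4 (limma adjusted p = 0.0257) or stained spots (0.0417). Gusb, the lysosomal enzyme that takes glucuronic acid off again, read 12.22 in control 4, on a stained spot, and 10.03 to 10.63 in the other controls. Its change was 0.16 with that value and 0.65 without stained spots (limma adjusted p = 0.882 and 0.139).

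Of 6 other glucuronosyltransferases measured, 1 rose and 0 fell, with a median change of 0.02. Ugt1a10 read 11.61, 11.67, 11.16 and 11.35 in controls and 12.52, 12.76, 12.65 and 12.20 after DDE at its brighter probe. It rose by 1.09 (limma adjusted p = 0.0215), while its dimmer probe changed by -0.36 (limma adjusted p = 0.274). Genes of the Ugt1a locus share their last exons, so a probe there may read several of them. The call at the brighter probe was lost without control 3 or any of DDE 1, DDE 2 and DDE 3 (limma adjusted p from 0.0511 to 0.0677). Ugt1a6a, an enzyme for phenols, nearly reached the end of the scale at its brightest probe in both groups, from 15.45 to 15.91 in controls and 15.26 to 15.90 after DDE, so a change could not be read there. Another probe of Ugt1a6a, within the scale, read 10.09, 9.71, 10.44 and 11.25 in controls and 11.06, 11.37, 11.43 and 10.88 after DDE, with controls 3 and 4 on stained spots. The groups overlapped and its change was 0.81 (limma adjusted p = 0.298). Ugt3a1 and Ugt3a2, which use other sugar donors, changed by 0.21 and 0.035 and did not pass. Ugt2a1, a relative known from the olfactory lining, and Ugt8a were at background in all 8 livers.

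Export of conjugates had 1 of 4 genes risen and 0 fallen, with a median change of 0.26. Abcc3, the pump that moves glucuronides from the hepatocyte to blood, read 10.88, 11.32, 11.61 and 11.27 in controls and 12.85, 13.24, 12.97 and 13.12 after DDE. It rose by 1.78, 3.42-fold, with groups 1.24 apart (limma adjusted p = 0.00676). Abcc2, the pump toward bile, changed by 0.02 (limma adjusted p = 0.98) and Abcg2 by 0.25 (0.682). When 1 mouse was left out the change of Abcc2 ran from -0.18 to 0.34 and that of Abcg2 from -0.032, without control 4, to 0.41, so neither had a settled direction. Abcc4 was above background in 1 DDE liver and 0 controls.

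Steroid enzymes that make or remove the androgens and estrogens offered to Ugt2 enzymes had 0 of 13 genes risen and 1 fallen, with 0 and 4 at an unadjusted p under 0.05 (11.4% and 4.57% of all genes), and a median change of -0.17. The 1 that fell was Hsd3b5, a ketosteroid reductase of male mouse liver. It read 12.98, 12.86, 12.26 and 10.52 in controls and 7.63, 7.13, 7.13 and 7.06 after DDE, at least 22.6-fold lower, with only DDE 1 above background (limma adjusted p = 0.00921). The dehydrogenases Hsd3b2 and Hsd3b3 changed by -0.72 each and did not pass (limma adjusted p = 0.22 and 0.13). Akr1c6, a 17-beta-hydroxysteroid dehydrogenase, read 15.90 to 15.94 in controls, at the end of the scale, and 15.44, 15.54, 15.63 and 14.53 after DDE. Its measured change of -0.64 is therefore a lower bound in size and did not pass (limma adjusted p = 0.25), while without DDE 4 it was -0.39 and passed (0.0312). Srd5a3, of the steroid 5-alpha-reductase family, read 12.72 in control 4, on a stained spot, 8.93 to 8.97 in the other controls and 9.16 to 9.36 after DDE. Its change was -0.61 with that value (limma adjusted p = 0.736), and 0.34 and past the threshold as higher without stained spots (0.0486). Hsd17b2, which oxidizes testosterone and estradiol, changed by 0.40 (0.633), and by 0.18 to 0.60 when 1 mouse was left out. Sult1e1, the estrogen sulfotransferase, was at background in all livers.

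Receptors and liver factors linked to Ugt2 genes had 2 of 11 genes risen and 0 fallen, with a median change of 0.57. Nr1i2, the gene of PXR, read 7.59, 7.70, 7.58 and 7.48 in controls and 8.36, 8.14, 8.10 and 8.22 after DDE. It was above background in 1 control and in all DDE livers, so it rose at least 1.43-fold (limma adjusted p = 0.0153), though not with a variance that followed the intensity (0.0903). Nr1h4, the gene of the bile acid receptor FXR, went from 12.44 ± 0.22 to 13.16 ± 0.14 and rose by 0.72 (limma adjusted p = 0.0344). Its call was lost in 6 of the 8 fits that left out 1 mouse (highest limma adjusted p = 0.107) and with a variance that followed the intensity (0.0812). Nr1i3, the gene of CAR, changed by 0.57 with groups that overlapped (limma adjusted p = 0.617), by 0.23 without control 4 and by 0.80 without control 2, whose value was on a stained spot. Ahr changed by 1.11 (0.147) and Hnf4a by -0.058 (0.91).

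**Figure D5:**
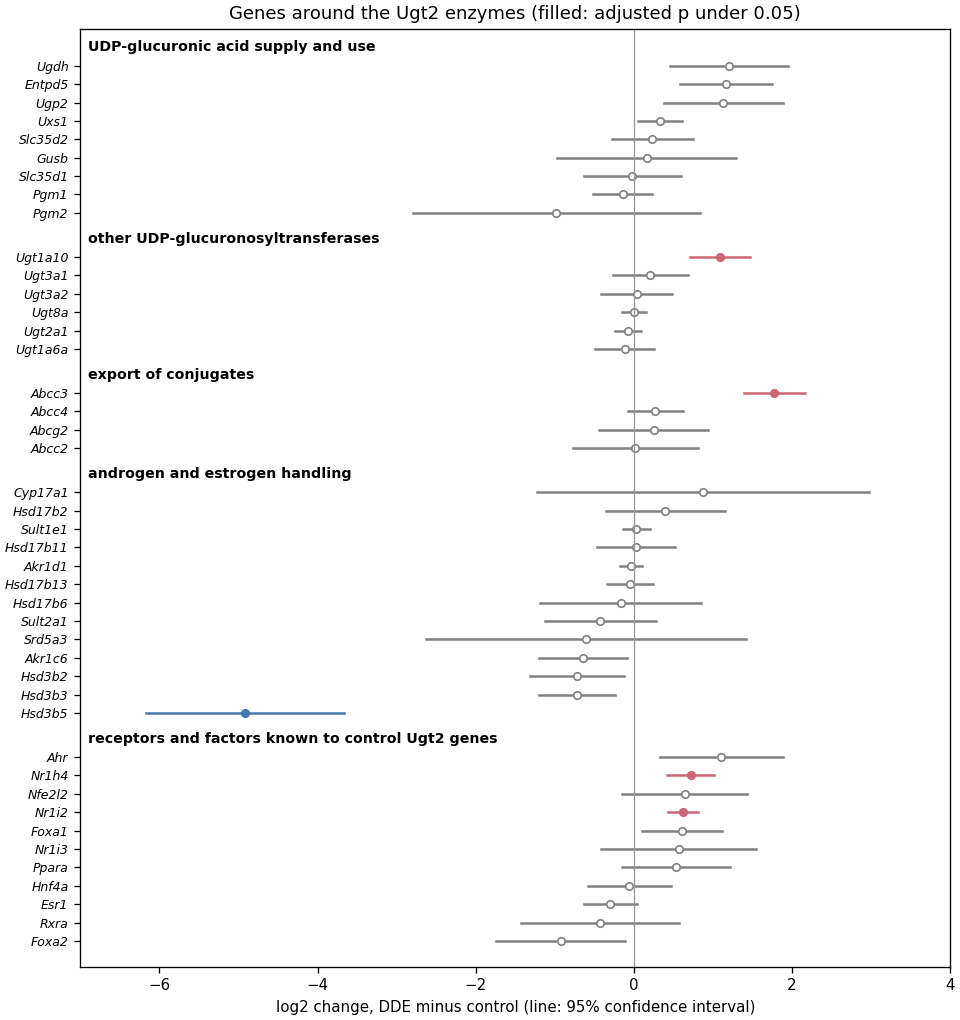
Log2 change, DDE minus control, of 43 genes around the Ugt2 enzymes in 5 lists, each gene at its brightest probe with its 95% confidence interval; filled red points rose and filled blue points fell at an adjusted p under 0.05. The filled points are Ugt1a10, Abcc3, Nr1h4, Nr1i2 and Hsd3b5, the last at -4.92.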

How the data were processed

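The authors' deposited table holds 1 log2 signal per probe and array, already normalized. For scanner, background correction, normalization and filters the method is not given in the sources used here. Per the labels' protocols, Cy3-labelled cRNA was made from total RNA. Medians were 7.46 to 7.47 on all arrays, and values were used as deposited. Their number, 4 arrays per group, limits the precision. No label names a separate batch.

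Genes were named from the platform's annotation table, in which 33009 probes carry 1 symbol, none several and 9948 none. It names mouse transcripts, so a probe may bind Mus spretus RNA less well or bind several Ugt2b transcripts. Probe, promoter and protein sequences and genome positions were not used here.

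All probes were fitted with limma 3.58.1 (functions lmFit and eBayes, R 4.3.3) as DDE minus control without covariates, and two-sided p-values were adjusted by Benjamini-Hochberg over 42957 probes. The fit was tested on simulated data. An array's background was the 0.95 quantile of 1622 receptor probes off stained spots. A fold is a lower bound where the dimmer group touched background or the brighter one reached 15.5, a level set after seeing the values. Features were placed in rows of 85, and stained spots were those whose window of 7 rows by 5 columns had a median deviation from the probe medians beyond 0.3. Pairs were compared by exact permutation of the 8 mice, with intervals from inverting that test.

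Members, lists and alternatives were chosen with earlier results of these data known. Every member probe is named, and of the lists each gene past the threshold and, in a list with none, that with the smallest p. Genes of like change are the 5 outside the family with the smallest root mean square difference, in which the rise itself is kept. Other list genes were named after their values were seen.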

Additional observations from a re-analysis of the deposited data

Results flagged for a closer look

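In 28 groups of 4 livers (the 9 member probes and the 5 list genes past the threshold, each in both groups), 4 held a value far from the other 3, and chance gives about 1 in 20. At the bright probe of Ugt2b35, DDE 3 read 13.01 against 12.07 for the next DDE liver. At its dim probe, which was at background, DDE 1 read 7.04 against 7.16 for the next. At Ugt2b36, DDE 2 read 14.50 against 14.29. At Hsd3b5, DDE 1 read 7.63 against 7.13, and it was the only DDE liver above background there. None of these 4 values was on a stained spot.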

How the results depend on the processing

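The count of 7 raised Ugt2 probes stayed at 6 or 7, and that of lowered probes at 0, in 15 of 16 alternatives. Quantile normalization and centring on the 75th percentile are among these and could change little, since the arrays already had nearly equal medians. They gave 1.95 and 1.93 for Ugt2b38. With the replicate block 0 Ugt2 probes passed: the changes of Ugt2b35 (3.79), Ugt2b5 (2.38), Ugt2b37 (2.10), Ugt2b36 (1.95), Ugt2b38 (1.94), Ugt2a3 (1.64) and Ugt2b1 (1.12) had limma adjusted p from 0.0541 to 0.101. Of the list genes 0 rose and 0 fell under it, and of all probes 8 and 1. The labels do not pair the mice, and same-numbered mice correlated between -0.011 and 0.0752 in their deviations from the group means; numbers 1, 2 and 3 correlated best with their own number and number 4 did not. The stained share of the arrays rose with the replicate number in both groups. The block also uses up residual degrees of freedom. Whether that or an effect shared by same-numbered mice or arrays lies behind the loss of calls was not tested. With a variance that followed the intensity, Ugt2b1 kept 1.12 without passing, 2 list genes rose, and 399 probes rose and 112 fell, against 1005 and 284. With array weights 1607 rose and 533 fell, and without control 4 and DDE 4, an alternative added after seeing the data, 7 Ugt2 probes were still higher and 443 of all probes fell. Leaving out 1 mouse gave 271 to 1362 raised and 61 to 428 lowered probes, 2 to 5 raised and 1 to 2 lowered list genes, and 0.93 to 1.21 for Ugt2b1. Srd5a3, a list gene with -0.61 and control 4 on a stained spot, turned to 0.34 without stained spots and to 0.38 without control 4 and DDE 4, past the threshold as higher in both (limma adjusted p = 0.0486 and 0.0364). Otherwise the cause was not tested. Signals near 7.8 or above 15.5 limit what Ugt2b34 and Ugt2b38 can show.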
